A study of Mus musculus with 2 samples.

Results

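The 10 genes described here, Acta2, Actg2, Tagln, Myh11, Cnn1, Des, Smtn, Lmod1, Tpm2 and Synpo2, encode proteins of the contractile apparatus of smooth muscle, and they were taken by name from the 29923 genes on the arrays, with all of their 14 probes. RNA of pooled mouse ureters (NMRI strain) at E18.5 was compared on 2 two-colour arrays, 1 with a female and 1 with a male pair of pools. The Pparg-cKO embryos carried Pax2-cre/+; Pparg(fl/fl). Controls were Pparg(fl/?), littermates without cre per the study's methods, so that at least a floxed allele is shared by both genotypes. By the cross the other control allele was floxed or wild type, and which it was in each embryo is not given. Pax2-cre acts in the nephric duct and in the ureteric epithelium that descends from it, and its known domain does not include the smooth muscle. Dyes were exchanged between the arrays, and sex, dye orientation, array and pool changed together and cannot be told apart. All ureters of a pool were measured as 1 sample, which leaves 2 arrays as the replicates of the comparison.

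The wall of the ureter holds a coat of smooth muscle around the urothelium, and its contractions carry urine from the kidney to the bladder. Smooth muscle cells differentiate from the mesenchyme around the ureteric epithelium under signals from that epithelium, and then make actin filaments, a smooth muscle myosin and the proteins that tie and regulate them. Transcription of many of these genes depends on serum response factor and its partner myocardin, which act at CArG boxes (CC, then a run of A and T, then GG). Comparing these genes between the genotypes asks whether the muscle coat carries a different transcript content when Pparg is lost in the epithelium.

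The probes are 60-base oligonucleotides printed on 4 spots each. The stretches below are shown because most of what follows turns on genes that had more than 1 probe, or on the near-identical pair of alpha and gamma smooth muscle actin, and they let a reader see which part of each transcript was read. They are the array's own letters, 5′ to 3′, at the positions its design gives on mouse build mm9. The first 30 bases are printed for all but the pair of Tpm2, and the number after a name is the transcript base at which the probe starts. The 2 probes of Tpm2 are placed on different transcript entries, and so are those of Smtn. Their numbers are thus not positions along 1 transcript, and differences between transcript forms were not tested.
Acta2 1278, chr19:34316090-34316119, minus strand: gttttgtggatcagcgcctccagttccttt
Actg2 1254, chr6:83462934-83462963, minus strand: tctggggatccccacaagactgctgtcacc
Synpo2 7034, chr3:122779489-122779518, minus strand: ctctgtcctcaaaggctgtatgtgaaagat
Synpo2 4399, chr3:122782124-122782153, minus strand: gatataacatgcatttgccatttaccttgt
Synpo2 3168, chr3:122815528-122815557, minus strand: cacaaatgcgcaggcttcttctgtgtactc
Smtn 3379, chr11:3417560-3417589, minus strand: tctgtcaaaacacctctcccctttgtacac
Smtn 2891, chr11:3420864-3420893, minus strand: tggatacagaggacatggtgcggcttcgag
Tpm2 631, chr4:43532262-43532321, minus strand: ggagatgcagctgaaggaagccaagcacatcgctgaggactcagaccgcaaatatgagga
Tpm2 840, chr4:43531276-43531335, minus strand: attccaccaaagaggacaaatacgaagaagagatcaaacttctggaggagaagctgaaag
The longest run that any of the 14 probes shared with a probe of another gene was between 12 and 17 bases, and for the 2 actin probes it was 13. Probes were compared with probes and not with whole transcripts. The coding sequences of these actins are nearly the same, and whether either probe also reads the other transcript was not tested. The other members had 1 probe each: Tagln on chr9:45738097-45738156, Myh11 on chr16:14202190-14202249, Cnn1 on chr9:21913058-21913117, Des on chr1:75363404-75363629 and Lmod1 on chr1:137264581-137264640. The Des probe spans 226 bases of the genome, more than its own length of 60, so it crosses a splice junction. Exons and untranslated regions were not annotated here, because no mm9 annotation was used.

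All 14 probes were well above background in all 4 pools, so the muscle markers were detected in every pool labelled as ureter. The values given are processed signals, already corrected by the scanner software for background and dye, and log2 ratios of Pparg-cKO over control after loess normalisation within each array. Direction needs a caution before any sign is read. The authors' deposited value table runs opposite to the dye labels on both arrays (over 17914 bright probes it correlated with red over green, as a log2 ratio, at 0.996 for the female pair and -0.998 for the male pair). Signs here follow that table, in which each column is headed Pparg-cKO first and control second, and this direction is likely but not settled. It is called likely because the study's tissue sections of Pparg-cKO ureters run that way for genes of the superficial urothelial cells and for the Pparg transcript that the mutant still makes. Should the labels for the dyes hold instead, higher and lower change places throughout, while sizes, counts and p-values stay. The targeted gene, Pparg, read 12357 against 6113 signal units in the female and 12930 against 6688 in the male pools, Pparg-cKO first. Its log2 ratio was 0.97 ± 0.02 (SD, n = 2 arrays) with an adjusted p of 0.0373 in limma (0.00332 to 0.533 over the alternatives), that is, higher in the pool that this direction calls Pparg-cKO. Where its probe, on chr6:115440213-115440272, lies relative to the floxed exons was not analysed here, so its level alone does not check the genotype.

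In Pparg-cKO ureters the mean ratios of the contractile genes ran from 1.31-fold lower (Synpo2) to 1.11-fold higher (Smtn), and none of the 10 passed the test. By limma, 0 of 10 members had an adjusted p under 0.05, and 0.751% of the 22499 genes tested did. At p under 0.05 without adjustment the count was 1 of 10 (Synpo2), against 8.51% of all genes. The study's own kind of criterion was at least 1.5-fold in 1 direction on each array, here with a signal of at least 100 in the brighter pool of each array. It was met by 0 of the 9 members bright enough (all but Lmod1) and by 1.84% of the 14015 genes bright enough. The median of the members' mean log2 ratios was -0.14, beside 0.01 over all genes tested. The median size of the ratio, sign left aside, was 0.15 among members and 0.09 among all genes. All genes tested include many dim ones and were not matched to the members for signal, so these sizes are not like for like. In a bulk sample, fewer smooth muscle cells and less RNA per cell cannot be told apart.

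After loess, more members were lower in the female pair than in the male pair, 9 against 5, but with median centring the counts were 8 and 7. On the female array 9 of 10 were lower in the Pparg-cKO pool (51.8% of all genes were), and the members' median log2 ratio there was -0.20. In the male pair 5 of 10 were lower (47.7% of all genes), and the median was 0.01. Over both arrays 4 of 10 members were lower on each, namely Synpo2, Tagln, Actg2 and Des, against 26.2% of the genes tested, and 0 were higher on each, against 26.6%. Which members these were changed with the normalisation. Acta2 joined them, for 5 in all, with the scanner's processed signals and in the deposited table. With median centring in place of loess there were 5 as well, Synpo2, Actg2, Myh11, Cnn1 and Tpm2, against 17.6% of the genes tested under that setting, while Tagln (0.01 and -0.71) and Des (-0.28 and 0.18) had opposite signs. Synpo2 and Actg2 were lower on both arrays under each of the 6 processing alternatives. The other 6 had opposite signs on the arrays, which 47.2% of all genes had too. The SD between the arrays had a median of 0.22 over the members and of 0.12 over all genes, again without matching for signal.

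**Figure D1:**
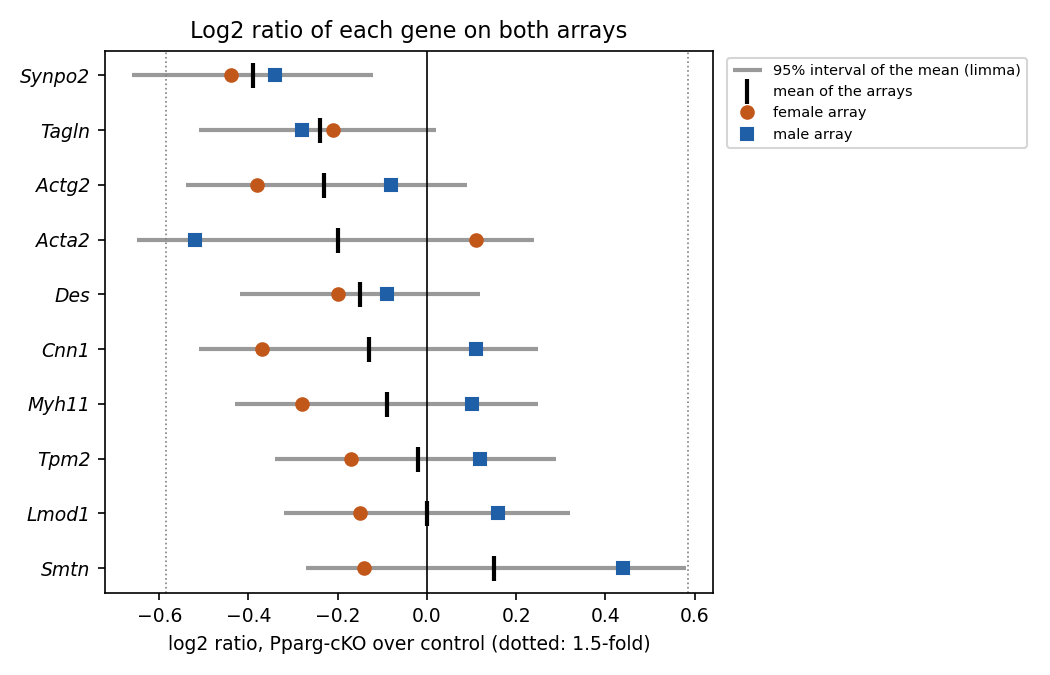
Log2 ratio of Pparg-cKO over control (x axis) for each of the 10 genes (y axis), on the female array (circles) and the male array (squares), with the mean as a black tick and its 95% interval from limma as a grey bar; dotted lines mark 1.5-fold. The interval of Synpo2 (-0.66 to -0.12) is the one that lies on 1 side of 0 before any adjustment, and no gene has both arrays beyond a dotted line.

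Synpo2, whose protein synaptopodin-2 binds actin and alpha-actinin, had the lowest mean ratio among the members. Its brightest probe read 3189 in the Pparg-cKO and 4201 in the control pool of the female pair. In the male pair the readings were 3649 and 4767. Both Pparg-cKO pools were thus below both control pools. The log2 ratio was -0.44 in the female and -0.34 in the male pair, which gave a mean of -0.39 ± 0.07 (SD, n = 2 arrays), or 1.31-fold lower. The p in limma was 0.0135, and after Benjamini-Hochberg adjustment over all genes it was 0.355, so this difference did not pass. Of the genes tested, 2.5% had a lower mean ratio.

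A further probe of Synpo2, the 1 that starts at transcript base 4399, read 297 against 397 in the female and 420 against 544 in the male pools. Its log2 ratios of -0.33 and -0.40 lay beside those of the brightest probe, with SDs between its own spots of 0.05 and 0.03. The third probe, at base 3168, was dim, at 16.7 against 19.5 and 38 against 35.7. It gave -0.11 and 0.10, so the array pair did not agree in sign there. The 2 later stretches of the transcript shown above thus read alike, and the stretch from base 3168 did not follow them.

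Tagln encodes transgelin (SM22-alpha), an actin-binding protein that is a standard marker of differentiated smooth muscle. It read 26184 against 31149 in the female pools and 26295 against 29689 in the male pools, Pparg-cKO first. Both Pparg-cKO pools were below both controls. The log2 ratios were -0.21 and -0.28, with a mean of -0.24 ± 0.06 (SD, n = 2 arrays), 1.19-fold lower, with a limma adjusted p of 0.637. Its 95% interval ran from -0.51 to 0.02.

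Actg2 encodes gamma smooth muscle actin, the actin typical of visceral muscle. Its signals were 8594 against 10808 in the female pools and 10044 against 11025 in the male pools. All Pparg-cKO readings were again the lower ones, but the gap was larger in the female pair, at -0.38 on the log2 scale against -0.08. With median centring the ratios were -0.27 and -0.29, a gap of 0.01 in size between the pairs against 0.30 after loess. The mean was -0.23 ± 0.21 (SD, n = 2 arrays), with an adjusted p of 0.721 in limma.

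Acta2 encodes alpha smooth muscle actin, the protein most often stained to show the muscle coat. Its probe read 54027 in the Pparg-cKO and 55596 in the control pool of the female pair. It read 44954 and 56274 in the male pair. Only the male Pparg-cKO pool stood apart. After loess the log2 ratio was 0.11 for the female and -0.52 for the male pair, a gap between arrays of -0.62 (male minus female), and in size it was 17 times the standard error of the spots. The mean was -0.20 ± 0.44 (SD, n = 2 arrays), with an adjusted p of 0.85 in limma.

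The reading of Acta2 turned on the normalisation. From the scanner's processed signals its log2 ratios were -0.04 and -0.33, and the deposited table gave -0.05 and -0.31. With the median of each array subtracted in place of loess they were 0.40 and -1.06. The male array was the lower one under each of these settings, while the female sign changed between them. The gap between arrays was the largest among the members under loess and median centring, and Smtn had the larger one with the scanner's signals (0.56 against 0.29 in size) and in the deposited table (0.57 against 0.26). The part of signal-dependent dye effects in these values was not tested.

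**Figure D2:**
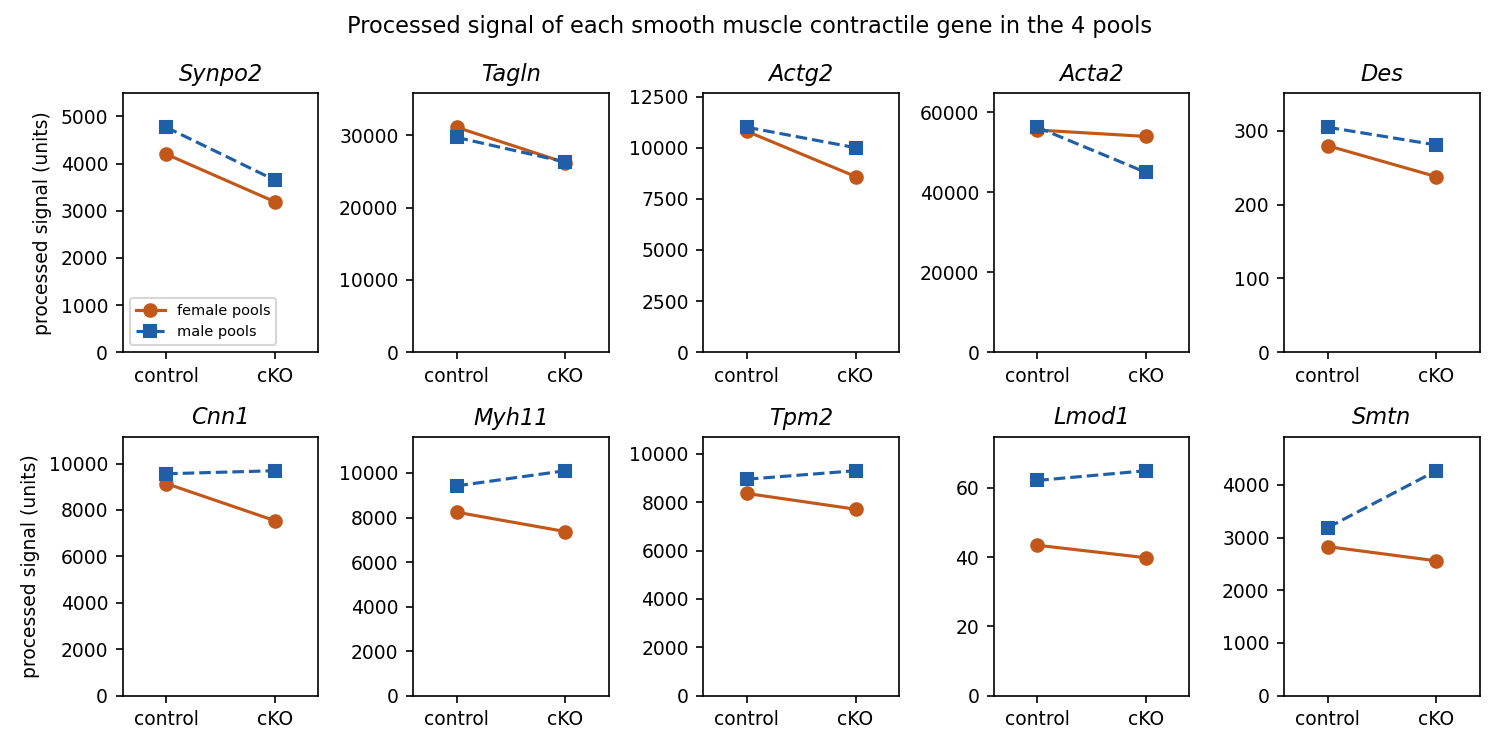
Processed signal in scanner units (y axis, from 0, a scale of its own for each gene) of the brightest probe of each gene in the control and the Pparg-cKO pool, joined for the female pair (circles, solid line) and the male pair (squares, dashed line). For Synpo2, Tagln, Actg2, Acta2 and Des both lines fall towards the Pparg-cKO pool, while Smtn rises from 3193 to 4273 in the male pair and falls from 2825 to 2557 in the female pair.

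The myosin and its companions were split by array. Myh11, the heavy chain of smooth muscle myosin, read 7367 against 8238 in the female pools and 10062 against 9419 in the male pools. Its log2 ratios were -0.28 and 0.10, with a mean of -0.09 ± 0.27 (SD, n = 2 arrays) and a limma adjusted p of 0.945. Tpm2 encodes beta-tropomyosin, which lies along the actin filament and is made in skeletal muscle as well. Its brighter probe read 7714 against 8364 and then 9301 against 8949. The log2 ratios of this probe were -0.17 and 0.12, and those of the other probe, at 7164 against 7821 and 8118 against 8278, were -0.18 and 0.00. Both probes read the Pparg-cKO pool lower in the female pair, and they parted in the male pair, where the processed signal of the second was lower too. The mean of the brighter probe was -0.02 ± 0.21 (SD, n = 2 arrays), with a 95% interval of -0.34 to 0.29.

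Cnn1 encodes calponin, an inhibitor of the myosin ATPase. It read 7539 against 9136 in the female pools and 9694 against 9562 in the male pools. The female Pparg-cKO pool alone was below the controls. Its log2 ratios were -0.37 and 0.11, with a mean of -0.13 ± 0.34 (SD, n = 2 arrays) and a limma adjusted p of 0.915. Lmod1 encodes leiomodin, which nucleates actin filaments in smooth muscle. Its probe was under 100 units in every pool, at 39.8 against 43.4 and 64.9 against 62.1. Its log2 ratios of -0.15 and 0.16 cancelled to a mean of 0.00 ± 0.22 (SD, n = 2 arrays), with an interval of -0.32 to 0.32, or 1.25-fold in either direction.

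Smtn, which encodes the actin-binding protein smoothelin, was the member with the highest mean. Its brighter probe read 2557 against 2825 in the female pools and 4273 against 3193 in the male pools. The male Pparg-cKO pool was the highest of the 4. The log2 ratios were -0.14 and 0.44, with a mean of 0.15 ± 0.41 (SD, n = 2 arrays) and a limma adjusted p of 0.905. The probe at base 2891 read 508 against 500 and 673 against 569, with log2 ratios of 0.01 and 0.24, so both probes placed the male pool of Pparg-cKO higher and they differed in the female pair. Des encodes desmin, the intermediate filament protein of muscle cells of all kinds. It read 238 against 280 and 281 against 305, lower in each Pparg-cKO pool than in its partner. The log2 ratios were -0.20 and -0.09, with a mean of -0.15 ± 0.08 (SD, n = 2 arrays) and a limma adjusted p of 0.8.

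**Figure D3:**
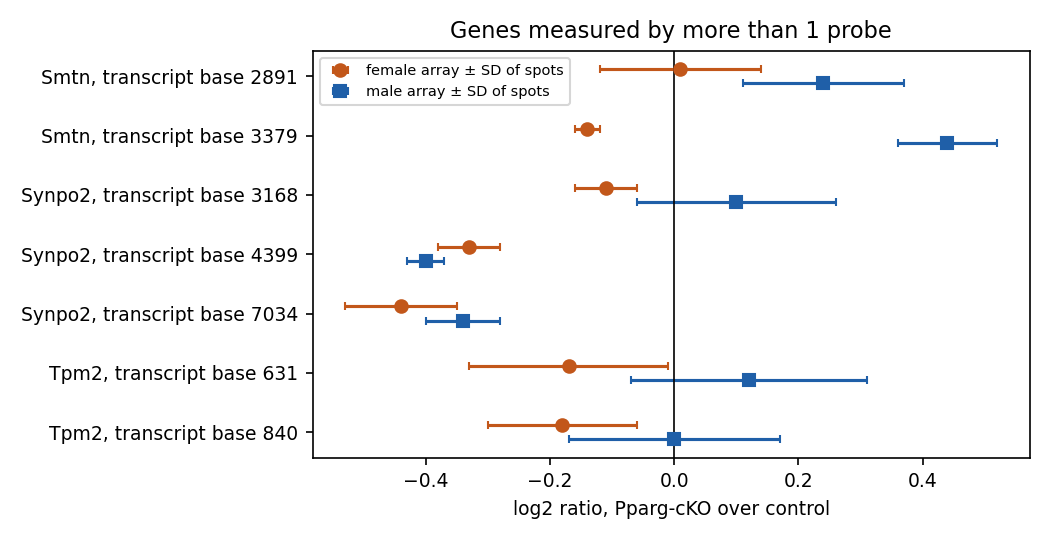
Log2 ratio of Pparg-cKO over control (x axis) for the 7 probes of Smtn, Synpo2 and Tpm2 (y axis, by the base of its own transcript entry at which each starts), on the female array (circles) and the male array (squares). Bars are the SD between the kept spots of a probe. The Synpo2 probes at bases 4399 and 7034 lie between -0.44 and -0.33 on both arrays, and the dim probe at base 3168 straddles 0.

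The 4 spots of a probe show how far a reading repeats on an array. The SD between the 3 or 4 kept spots of a probe ranged from 0.02 to 0.20 over the 14 probes, with a median of 0.08. On 6 of the 14 probes, those of Acta2, Actg2, Myh11, Cnn1 and Lmod1 and the brighter of Smtn, the arrays differed by more than 3 standard errors of the spots. Spots repeat a hybridisation and not the animals, so these errors cover technical spread alone. The limma intervals, which also take in the spread between arrays, held 1.5-fold lower for 2 of 10 members (Synpo2 and Acta2) and 1.5-fold higher for 0. For the other 8 a mean fall of that size lay outside the interval after loess. Intervals under the other settings are not given, and some means moved there. With median centring Tagln was at 0.01 and -0.71, a mean of -0.35 in place of -0.24. These intervals thus do not exclude a fall of that size.

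**Figure D4:**
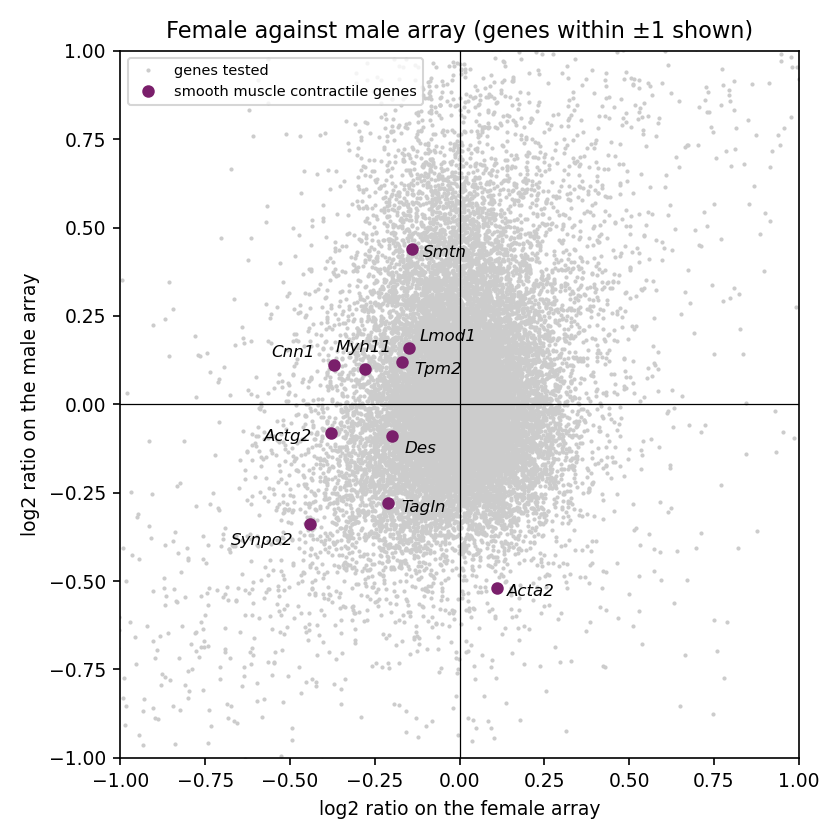
Log2 ratio of Pparg-cKO over control on the female array (x axis) against the male array (y axis), for the genes tested (grey) and the 10 smooth muscle contractile genes (purple, named); genes beyond 1 in size are not drawn. Of the 10 genes, 9 lie left of 0 and 5 below it, and Acta2 is alone at the lower right.

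Of 32 further genes of the contractile apparatus and cytoskeleton of smooth muscle 31 were tested (Mylk4 was not, being too dim). By limma 0 passed, and 5 had an unadjusted p under 0.05 (8.51% of all genes did). Their median log2 ratio was 0.00, with 11 lower and 9 higher on both arrays (26.2% and 26.6% of all genes). Pcp4, which encodes a calmodulin-binding peptide, was the lowest and the single one past the fold rule (1.84% of the genes bright enough). It read 6008 against 10790 and 5276 against 9927, a log2 ratio of -0.85 ± 0.01 (SD, n = 2 arrays) with an adjusted p of 0.0538 in limma. Next to it was Ckm, muscle creatine kinase, named here after its values were seen because it marks both smooth and skeletal muscle, at -0.50 and -0.95 on the arrays (mean -0.72 ± 0.32, adjusted p 0.192). In the study's stained sections at E18.5 the proteins ACTA2, TAGLN and CKM were reported as indistinguishable between the genotypes. Those sections show protein in the wall, and the arrays read RNA of whole pools. The highest mean, of Smtnl2, a smoothelin-like gene, was 0.58 ± 0.46 (adjusted p 0.439).

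Of 21 regulators of the smooth muscle programme, which include myocardin, serum response factor and Tshz3, all 21 were tested and 0 passed by limma (4 at an unadjusted p under 0.05, against 8.51% of all genes). Their median was 0.06, with 2 lower and 9 higher on both arrays (26.2% and 26.6% of all genes). The lowest was Foxf1, a mesenchymal transcription factor, at -0.22 ± 0.30 (adjusted p 0.765), and the highest Id4, an inhibitor of helix-loop-helix factors, at 0.76 ± 0.56 (adjusted p 0.359). Of 6 genes of the hedgehog response, a pathway by which the ureteric epithelium acts on the mesenchyme, 0 passed by limma (2 at an unadjusted p under 0.05) with a median of 0.15, 2 lower and 1 higher on both arrays, to be read against the same shares. Hhip, a target that binds the ligand, was the lowest at -0.61 ± 0.26 (adjusted p 0.235), the other lower on both arrays was Ptch1, a receptor and target named after its values were seen, at -0.39 ± 0.18 (adjusted p 0.439), and the receptor component Smo was the highest at 0.35 ± 0.65 (adjusted p 0.784).

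Of the 25 genes tested for calcium entry, its release and pacemaking, 0 passed by limma, with 5 at an unadjusted p under 0.05 (8.51% of all genes). Their median was 0.06, with 3 lower and 11 higher on both arrays (26.2% and 26.6% of all genes). P2rx1, a purinergic receptor channel, was the lowest at -0.55 ± 0.02 (SD, n = 2 arrays), with an adjusted p of 0.16 in limma and signals of 55 against 88 and 73 against 123. Kit, a receptor tyrosine kinase that marks pacemaker-like cells in other organs, was the highest at 0.58 ± 0.32 (adjusted p 0.3). Of the 8 actin and myosin isoforms of other tissues 0 passed by limma (1 at an unadjusted p under 0.05), the median was 0.11, and 1, the cardiac myosin gene Myh6, was past the fold rule (1.84% of the genes bright enough) at -1.06 ± 0.40 (adjusted p 0.0972). Myh9, a non-muscle myosin heavy chain, was the highest at 0.47 ± 0.90 (adjusted p 0.771).

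Markers of other cells were read beside these genes, and the shares over all genes tested are 26.2% lower on both arrays, 26.6% higher on both and 8.51% at an unadjusted p under 0.05. Of 21 skeletal muscle markers 18 were tested (Myh1, Myh2 and Myh4 were too dim), and 13 were lower and 1 higher on both arrays, with a median of -0.30, 9 at an unadjusted p under 0.05 and 0 past limma's threshold. Their summed signal was 8500 in the Pparg-cKO and 9708 in the control pool of the female pair, and 7803 and 11036 in the male pair. Tnnc2 (-0.82 ± 0.13, adjusted p 0.0685) and Casq1 (-0.72 ± 0.14, adjusted p 0.0971), fast-fibre genes of calcium binding, were past the fold rule. Myh3, the embryonic myosin, was the highest at 0.11 ± 0.18 (adjusted p 0.898) and read 10 to 23 units. Des and Tpm2 are also made in skeletal muscle, and the part of such fibres in the values of the members was not tested.

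The 12 markers of lamina propria and adventitial fibroblasts had a median of 0.10, with 6 higher and 2 lower on both arrays. Dpt was the lowest at -0.29 ± 0.57 (adjusted p 0.796) and Col1a1 the highest at 0.61 ± 0.66 (adjusted p 0.583). Their summed signal was 218707 against 212373 in the female and 238146 against 192136 in the male pools, Pparg-cKO first. The 11 markers of pericytes and vessels, cells that share part of the contractile programme, had a median of 0.11, with 6 higher and 2 lower on both arrays, from Rgs5 at -0.33 ± 0.08 (adjusted p 0.483) to Cdh5 at 0.35 ± 0.24 (adjusted p 0.558). Their sums were 14825 against 15414 and 15860 against 15422. The 14 urothelial markers had a median of -0.17, with 6 lower and 5 higher on both arrays, and sums of 86250 against 114715 and 105334 against 100239. Upk1b (-1.02 ± 0.40, adjusted p 0.109) and Krt19 (1.00 ± 0.41, adjusted p 0.121) were past the fold rule in opposite directions. In each of these 3 lists 0 passed by limma, with 2, 2 and 7 at an unadjusted p under 0.05. The part of cell composition in the ratios of the contractile genes was not tested.

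**Figure D5:**
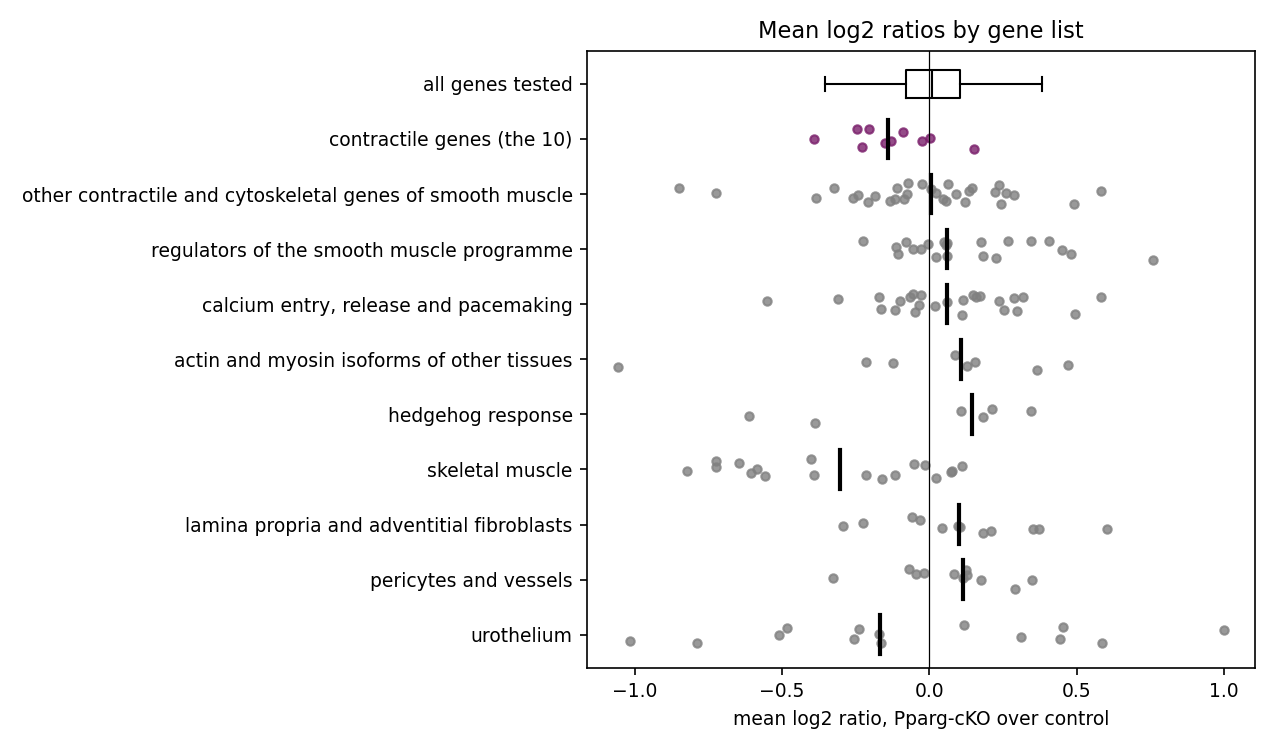
Mean log2 ratio of Pparg-cKO over control (x axis) for each tested gene of the 10 contractile genes (purple) and of 9 further lists (grey), with a black line at the median of each list; the box above shows the quartiles of all 22499 genes tested with whiskers of 1.5 times the interquartile range. The contractile genes lie between -0.39 and 0.15, and the skeletal muscle markers have the lowest median, -0.30.

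RefSeq promoter sequences (GRCm38.p6, 250 bases before to 50 after the transcript start) were at hand for 7 of the 10 members, all but Actg2, Tagln and Myh11. A CArG box, here CC, then 6 letters that are A or T, then GG, which reads the same way on both strands, was in 0 of the 7 windows and in 1.63% of all 32851 windows. With 1 other letter allowed among the 6, a match was in 1 of the 7, Acta2, and in 9.98% of all windows. Its 2 matches start 84 and 34 bases before the transcript start of the table, and they are shown in capitals because Acta2 alone among these 7 had a match.
Acta2, 84 before the start, chr19:34255438-34255467, minus strand: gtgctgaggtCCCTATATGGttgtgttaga
Acta2, 34 before the start, chr19:34255388-34255417, minus strand: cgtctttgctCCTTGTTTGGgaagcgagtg
These matches describe letters and not binding, and the other windows lack these letters only within the stretch searched. No reading of the arrays bears on the promoters themselves.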

How the data were processed

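Total RNA of ureter pools was amplified, labelled and hybridised per the labels. The scanner files, per the file headers, held spot intensity on a linear scale (mean signal, median background, processed signal) and the log10 ratio of red over green, from Agilent Feature Extraction 10.7.3.1 per the submitters' processing notes. The authors' deposited value table held a signed fold change per probe and array, whose direction was read against the scanner files and whose handling of dim spots is not given in the sources used here. From these, mean and background signals were corrected by normexp (offset 50) and loess in limma 3.58.1 under R 4.3.3, control spots had weight 0, outlier-flagged spots were dropped (2.87% female, 3.24% male; 0 were saturated), and the spots of a probe were averaged. A gene was its brightest probe. Filter: well above background in at least 0.5 of kept spots, in 1 channel or more, on both arrays. The mean of the log2 ratios was tested against 0 with lmFit and eBayes, two-sided, and adjusted by Benjamini-Hochberg across 22499 genes (prior df 4, residual df 1). The fit was also tested on simulated data whose spread was drawn from its own prior. The changes put in were larger than any mean ratio of the members after loess, so the simulation does not check the test at their sizes. Intervals are at 95% and are not adjusted for the number of genes. With 2 arrays the number of arrays limits the precision. Nothing in the labels ties single embryos to pools.

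Named were all members and, of each other list, genes called, past the fold rule, or with the highest or lowest mean. Outside this rule, Ckm and Ptch1 were named after their values were seen. Acta1 and Ckm stand in more than 1 list. Members and lists were chosen with earlier results of these data known. Alternatives tried were scanner-processed signals, no offset, median centring, the median over probes, no filter, the deposited table, each array alone, and other fold rules. Sequences are those of the array design and of RefSeq (GRCm38.p6).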

Additional observations from a re-analysis of the deposited data

Results flagged for a closer look

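Of the contractile genes, 6 had opposite signs in the female and the male pair, with 1 array of each sex. The male minus female difference of the log2 ratio was -0.62 for Acta2, 0.38 for Myh11, 0.48 for Cnn1, 0.58 for Smtn, 0.31 for Lmod1 and 0.30 for Tpm2. These values depend on the normalisation. For Acta2 the difference was -0.29 with scanner-processed signals, -0.26 in the deposited table and -1.46 with median centring, and with median centring it was 0.13 for Myh11, 0.23 for Cnn1 and 0.05 for Tpm2, each of these 3 having the same sign on both arrays. Smtn and Lmod1 kept opposite signs under each of the 6 processing alternatives. The difference was not tested, and sex, dye orientation, array and pool cannot be told apart. Opposite signs were found for 47.2% of all genes tested.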

How the results depend on the processing

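Calls by limma over all genes numbered 169, and 137 with scanner-processed signals, 571 without the offset, 173 with median centring, 171 with the median over probes, 94 without the filter and 0 in the deposited table, where no member could be called. In the other 5 alternatives no member was among the calls. The count of members past the fold rule was 0 with each alternative of signal, centring and probe and without the minimum of signal (the filter on dim probes was not varied for it), and at 1.2-fold in place of 1.5-fold it was 1 (Synpo2). The median log2 ratio moved by less than the spread between the arrays, and lay between -0.20 (female array alone) and 0.01 (male array alone) when an array was left out, with a fold rule count of 0 in both cases. The sign of the mean stayed for 9 of the 10 members under the processing alternatives. Lmod1, at 0.00, turned to -0.030 with scanner-processed signals, -0.003 without the offset and -0.028 in the deposited table; the cause was not tested. With 1 array left out, the value ranged from -0.52 to 0.11 for Acta2, -0.28 to 0.10 for Myh11, -0.37 to 0.11 for Cnn1, -0.14 to 0.44 for Smtn, -0.15 to 0.16 for Lmod1 and -0.17 to 0.12 for Tpm2, so each turned its sign; a single array allows no test. Lmod1 and a Synpo2 probe were dim, though well above background in all 4 pools, and the part of low signal in their values was not tested.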
